A study of Homo sapiens with 8 samples.

Results

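TFAP2A, TFAP2C, GATA2 and GATA3 are 4 genes for transcription factors that mark amnion, trophoblast and surface ectoderm. They were chosen by name, and all 4 were found among the 11644 genes counted at day 2 and among the 14070 genes listed at day 0. The cells were H1, an established human embryonic stem cell line, either wild type or SETD7 knockout. SETD7 encodes a lysine methyltransferase. Cells of both genotypes were kept in mTESR and sampled at day 0 (1 library per genotype) or at day 2 (3 libraries per genotype) of a hematopoietic differentiation in a custom TESR medium. The labels name no method of knockout and no clone, nor whether the 3 libraries of a genotype came from different cultures. Each p-value therefore reflects spread among these libraries only, which may be technical.

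TFAP2 (AP-2) proteins bind DNA as dimers at GC-rich palindromes, and TFAP2A and TFAP2C act in trophoblast, surface ectoderm and neural crest, TFAP2C also in germ cell specification. GATA2 and GATA3 are zinc finger factors that bind GATA motifs. Both are used in trophoblast, GATA2 is a regulator of blood progenitors, and GATA3 is an early target of BMP signalling when pluripotent cells turn to amnion or trophoblast. Members of the same family can stand in for each other at many sites, so each pair was read side by side.

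Because paralogs can share reads, the coding sequences of each pair were compared first, a check added after the values were seen. The coding sequences of TFAP2A (1320 bp) and TFAP2C (1353 bp) were 69.2% identical over 1291 aligned bases, and those of GATA2 (1443 bp) and GATA3 (1335 bp) 73.6% identical over 1323. No stretch of 50 bases was shared within either pair. The longest shared run was 14 bases for the TFAP2 pair and 18 bases for the GATA pair. It is shown in a window of 60 bases of the GENCODE 29 coding sequence (5′ to 3′, from base 17 in TFAP2A, 14 in TFAP2C, 334 in GATA2 and 322 in GATA3). Unlike the alignment, the windows were laid side by side without gaps, so bases that match only after a gap count as different. The 22 bases that differ by position in each pair are in capitals:
TFAP2A: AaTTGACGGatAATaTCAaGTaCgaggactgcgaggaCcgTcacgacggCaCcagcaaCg
TFAP2C: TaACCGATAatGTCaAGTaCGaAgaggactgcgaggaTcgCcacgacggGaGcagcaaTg
GATA2: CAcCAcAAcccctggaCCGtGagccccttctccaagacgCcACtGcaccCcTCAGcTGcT
GATA3: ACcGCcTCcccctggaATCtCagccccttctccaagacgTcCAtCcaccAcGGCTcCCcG

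At day 2, 1 gene of each pair was called. TFAP2C fell to 45.2% of its wild-type level and GATA3 to 86.5%, while TFAP2A and GATA2 did not pass the test. Thus 2 of the 4 genes were called, both lower in the knockout, where 23.3% of the 11475 tested genes were called in either direction 11% were called lower and 12.3% higher. The test was edgeR's quasi-likelihood test, with Benjamini-Hochberg adjustment over all tested genes. In these bulk libraries, fewer cells of a type and less RNA per cell cannot be told apart.

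Day 2 libraries held 27880068 to 39553614 counts. SETD7 mRNA checked the labels: its level was 54.8 to 56.2 CPM (counts scaled to library size, TMM) in the wild-type libraries and 28.9 to 33.7 in the knockout libraries at day 2, and 3.53 FPKM (a unit scaled for length and depth) against 1.48 FPKM at day 0. No pair of libraries was the same within counting error (smallest chi-square divided by its degrees of freedom 3.04). Knockout replicate 1, the most deeply sequenced library, stood apart from its group, with values of 8.95 and 6.1 against the other knockout libraries, where those 2 gave 3.04 and pairs of wild-type libraries 3.34 to 4.35. Its part in the results was not tested beyond leaving it out. Without it 2421 genes were called, TFAP2C (log2 fold change −1.19, edgeR adjusted p 1.24e-06) and GATA3 (−0.18, edgeR adjusted p 0.0497) among them, and TFAP2A (−0.026) and GATA2 (−0.010) were not.

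TFAP2C, on chromosome 20 (56629302 to 56639283, plus strand, GRCh38; ENSG00000087510), encodes AP-2 gamma. Its level was 6.44, 6.64 and 5.11 CPM in wild-type replicates 1, 2 and 3, and 2.90, 3.01 and 2.25 CPM in knockout replicates 1, 2 and 3. All 3 knockout libraries lay below the lowest wild-type library. The means were 6.06 ± 0.832 CPM (SD, n = 3) and 2.72 ± 0.408 CPM. The log2 fold change was −1.15 (SE 0.17, 95% interval −1.48 to −0.81, edgeR adjusted p 2.81e-06). These values rest on 67 to 213 counts per library. Few genes fell this far: 14 of the tested genes (0.122%) were called and lower by at least 2-fold, and TFAP2C was 1 of 9 called genes that fell by its amount or more.

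TFAP2A, on chromosome 6 (10393186 to 10419659, minus strand; ENSG00000137203), encodes AP-2 alpha. Its level was 5.32, 5.64 and 5.64 CPM in the wild-type libraries and 5.97, 5.38 and 5.48 CPM in the knockout libraries, and the genotypes overlapped. The means were 5.53 ± 0.186 CPM and 5.61 ± 0.315 CPM (SD, n = 3), a log2 difference of 0.02 (95% interval −0.25 to 0.30, edgeR adjusted p 0.933). Its exons overlap the antisense genes TFAP2A-AS1 and TFAP2A-AS2. The strand setting of the counting is not stated, so its level is uncertain. The change of TFAP2C was also set against TFAP2A within each library, which needs no scaling between libraries and was added after the values were seen. The uncertainty of TFAP2A passes into this ratio. There were 1.21, 1.18 and 0.906 TFAP2C counts per TFAP2A count in the wild-type libraries and 0.485, 0.559 and 0.411 in the knockout libraries. These groups did not overlap, and the mean log2 ratio differed by −1.18 (exact permutation test, 2-sided, p = 0.1, the smallest that 3 against 3 libraries can give).

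GATA3, on chromosome 10 (8045378 to 8075203, plus strand; ENSG00000107485), had the highest CPM of the 4. Its level was 38.6, 39.3 and 39.1 CPM in the wild-type libraries and 32.6, 33.5 and 35.2 CPM in the knockout libraries. Every knockout library lay below every wild-type library, as the libraries of the genotypes did, in 1 direction or the other, for 37.7% of tested genes. The means were 39.0 ± 0.387 CPM and 33.8 ± 1.34 CPM (SD, n = 3), and the log2 fold change was −0.21 (SE 0.058, 95% interval −0.33 to −0.09, edgeR adjusted p 0.00687). The size was close to the median of all called genes, which was 0.22 on the log2 scale. Without knockout replicate 1, its lowest library and the one that stood apart, GATA3 passed narrowly (edgeR adjusted p 0.0497, the highest of a range from 0.00682).

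GATA2, on chromosome 3 (128479427 to 128493185, minus strand; ENSG00000179348), was at 23.8, 23.3 and 23.7 CPM in the wild-type libraries and 24.6, 23.1 and 23.8 CPM in the knockout libraries. The genotypes overlapped. The means were 23.6 ± 0.260 CPM and 23.8 ± 0.751 CPM (SD, n = 3), and the log2 difference was 0.01 (95% interval −0.12 to 0.15, edgeR adjusted p 0.922). That interval leaves out a fall of the mean size seen for GATA3. Within each library there were 1.62, 1.68 and 1.65 GATA3 counts per GATA2 count in wild type and 1.32, 1.45 and 1.48 in the knockout. These ratios did not overlap either, with a difference in mean log2 ratio of −0.22 (exact permutation test, 2-sided, p = 0.1). TFAP2C per GATA3 count was 0.167, 0.169 and 0.131 in wild type against 0.0890, 0.0897 and 0.0639, with a difference in mean log2 ratio of −0.95 and no overlap (exact permutation test, 2-sided, p = 0.1). Adjusted over these 3 comparisons, each p was still 0.1, so none could pass. The ratios reuse the counts tested above and are no separate support.

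**Figure D1:**
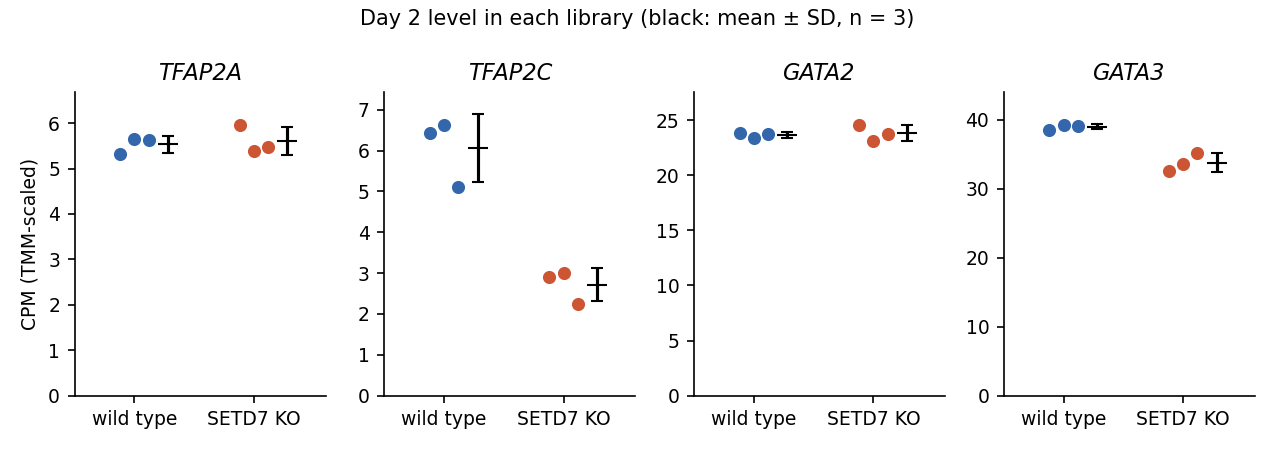
Day 2 level of each gene in CPM (vertical axes, each from 0) in the 3 wild-type (blue) and 3 SETD7 knockout (orange) libraries, with mean ± SD in black. TFAP2C and GATA3 show no overlap between genotypes, while TFAP2A and GATA2 overlap.

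**Figure D2:**
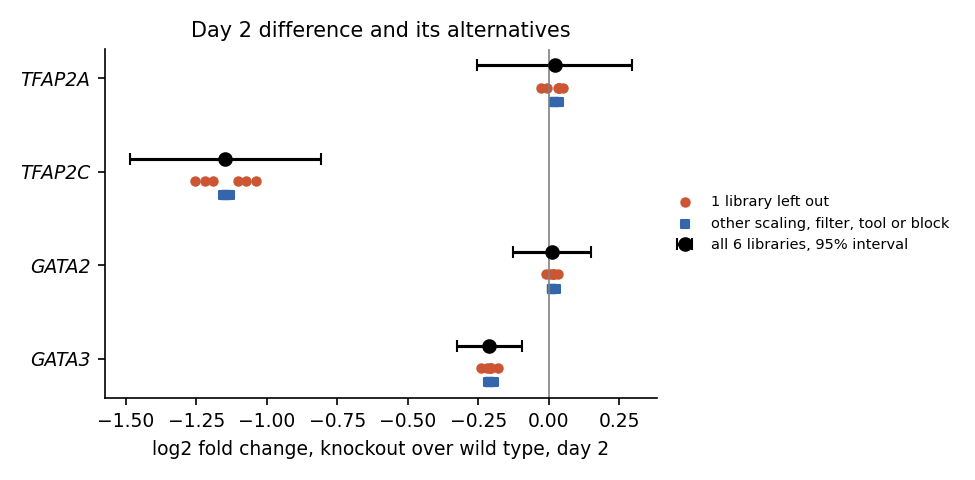
Log2 fold change, knockout over wild type, at day 2 (horizontal axis) with its 95% interval (black), with 1 library left out (orange) and under other scalings, filters, tools or the block (blue squares). TFAP2C stays between −1.26 and −1.04 and GATA3 between −0.24 and −0.18, while TFAP2A and GATA2 lie around 0.

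At day 0 TFAP2C stood apart from the other 3. It was listed at 5.19 FPKM in the wild-type library and 3.53 FPKM in the knockout library, a log2 ratio of −0.45 on the FPKM + 1 scale. With 1 library per genotype there is no replicate check and no test. The ratio was at the 14.1 percentile of the 13282 genes with at least 1 FPKM in either library and did not reach 1.5-fold, a threshold set after the values were seen, which 13.6% of those genes passed in either direction and 8.77% on the lower side. None of the 4 passed it. TFAP2A was listed at 0.0152 FPKM (wild type) and 0.0431 FPKM (knockout), GATA2 at 0.0763 and 0.292 FPKM, and GATA3 at 0.287 and 0.372 FPKM. These 3 genes lay among the lowest 4% of listed genes in both libraries, so no direction is read from their ratios. The depth of the day 0 libraries is unknown.

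The order of the 4 genes differed between the days when levels were taken per length. By FPKM at day 0, TFAP2C was highest in both libraries, followed by GATA3, GATA2 and TFAP2A. At day 2 the order by CPM per kilobase of annotated exon was GATA3 (11.4 for wild type and 9.83 for knockout), GATA2 (5.30 and 5.34), TFAP2C (2.02 and 0.905) and TFAP2A (0.669 and 0.678). The units of the days differ, so the levels themselves were not compared. Scaled by the longest coding transcript instead, TFAP2A came to 1.45 and 1.47 CPM per kilobase and TFAP2C to 2.12 and 0.948, so the order of these neighbours in the knockout depends on the length used. The relatives GATA4 and GATA6, factors of heart mesoderm and endoderm, were far above the 4 at day 2. GATA6 was at 193 CPM per kilobase in wild type and 188 in the knockout. GATA4 was at 72.1 and 69.0. Neither passed the test (GATA6 log2 difference −0.04, edgeR adjusted p 0.395; GATA4 −0.06, edgeR adjusted p 0.17). TFAP2B, TFAP2D, TFAP2E, GATA1 and GATA5 were not analysed here at day 2.

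**Figure D3:**
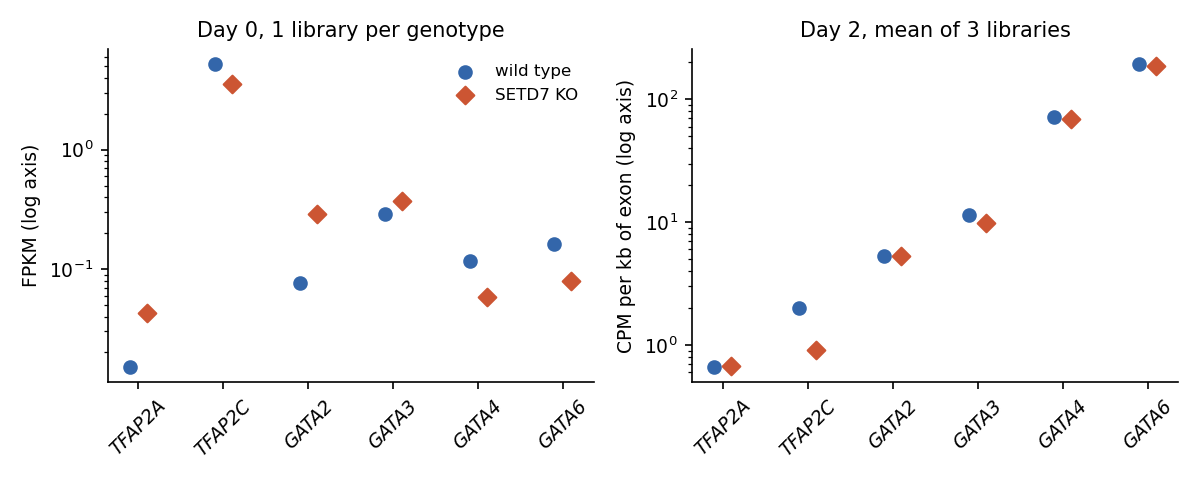
Left, FPKM at day 0 in 1 library per genotype; right, mean CPM per kilobase of exon at day 2 (both log axes, different units), wild type in blue and SETD7 knockout in orange. TFAP2C is the highest of the 6 genes at day 0, and GATA6 and GATA4 are the highest at day 2.

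Cofactors of the 2 families were read next, from a list of 16 of which 13 were tested. None rose and 3 fell, 23.1% of those tested, beside 23.3% of all genes. CITED2, a coactivator that links TFAP2 proteins to CBP and p300, fell from 241 ± 6.04 to 190.3 ± 1.83 CPM (SD, n = 3; log2 fold change −0.34, SE 0.033, edgeR adjusted p 1.3e-09). CREBBP, which encodes CBP itself, fell from 239.5 ± 7.41 to 208 ± 12.4 CPM (−0.20, edgeR adjusted p 0.000135). KCTD15, a repressor of TFAP2A activity, fell from 87.4 ± 2.10 to 77.8 ± 2.99 CPM (−0.17, edgeR adjusted p 0.00467). LMO4, a LIM-only adaptor, was 69.1 ± 2.81 against 63.3 ± 1.53 CPM and did not pass (−0.13, edgeR adjusted p 0.051). The list's median log2 fold change was −0.10, and that of all tested genes −0.0026. CITED2 was also lower in the knockout at day 0, at 33.1 against 19.1 FPKM (log2 ratio −0.77), while LMO4 was higher, at 20.1 against 26.2 FPKM (0.36).

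Genes of the tissues that these factors mark moved in both directions at day 2. Of 18 listed amnion genes 8 were tested (median log2 fold change −0.15). All 8 were called, 3 higher and 5 lower, where 23.3% of all tested genes were called. ISL1, a LIM homeobox factor of amnion and heart progenitors, fell from 4.95 ± 0.298 to 2.21 ± 0.424 CPM (SD, n = 3; −1.16, edgeR adjusted p 8.81e-06), nearly the log2 change of TFAP2C. S100A10 (−0.31), the basic helix-loop-helix factor HAND1 (−0.17), the T-box factor TBX3 (−0.17) and the matrix gene TNC (−0.13) also fell. In the other direction ANXA1, a phospholipid-binding annexin, rose from 22.03 ± 1.48 to 44.5 ± 0.416 CPM (1.01, edgeR adjusted p 1.63e-14). BAMBI (0.14) and POSTN (0.30) rose as well. TNC lost its call without wild-type replicate 2 (edgeR adjusted p 0.0524), within a range from 4.58e-05 to 0.0524. POSTN lost its call without wild-type replicate 1 (edgeR adjusted p 0.15) or knockout replicate 3 (0.0652), within a range from 0.0136 to 0.15. Both ranges are of adjusted p over all settings, DESeq2 and voom included. The 10 others, among them the amnion markers GABRP and VTCN1 and the homeobox gene CDX2, were not analysed here at day 2. The summed level of the tested amnion genes was 1248 to 1274 CPM in the wild-type and 1199.8 to 1228 CPM in the knockout libraries, none of them was at 0 in any library, and their part in the changes of TFAP2C and GATA3 was not tested.

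Of 37 trophoblast genes 13 were tested, and 4 rose and 6 fell (76.9% called, beside 23.3% of all tested genes, median −0.17). The paired keratins of simple epithelium fell, KRT8 from 753 ± 16.02 to 626 ± 14.8 CPM (−0.27, edgeR adjusted p 3.23e-08), KRT18 (−0.26) and KRT19 (−0.19), with the homeobox gene MSX2 (−0.30), TBX3 and the integrin ITGA6 (−0.63). The peptidase gene ENPEP rose from 26.7 ± 1.47 to 38.3 ± 3.69 CPM (0.52, edgeR adjusted p 4.38e-07). The placental growth factor gene PGF (0.32), the transporter gene ABCG2 (0.37) and ARID3A (0.10) were also called higher. The calls of ITGA6, ABCG2 and ARID3A were lost with single libraries left out: ITGA6 without wild-type replicate 2 (edgeR adjusted p 0.0571), ABCG2 without wild-type replicate 1 (0.09) and without either of knockout replicates 1 (0.0654) and 2 (0.062), and ARID3A without any single wild-type library and without knockout replicate 1 (0.0779 to 0.148). ARID3A also missed in DESeq2 (adjusted p 0.0525). The summed level was 1902 to 1953 CPM in wild type and 1739 to 1754 CPM in the knockout. KRT8 was the largest part of that sum and made up most of its difference. KRT8, KRT18 and KRT19 are shared with the next list. The defining trophoblast genes ELF5, GCM1, TP63, CGA and VGLL1 were not analysed here at day 2, and the part of this list in the changes of the 4 factors was not tested.

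Of 28 surface ectoderm and placode genes 10 were tested, of which 6 fell and none rose (median −0.22). The share called was 60%, beside 23.3% of all tested genes. Besides the 3 keratins, ESRP1, an epithelial splicing regulator, fell from 34.0 ± 1.65 to 23.5 ± 0.401 CPM (−0.53, edgeR adjusted p 7.6e-08). The placode homeobox gene PITX1 (a low mean of 4.05 to 2.29 CPM, −0.81) and the epithelial adhesion gene EPCAM (−0.25) were also called lower. EPCAM lost its call without wild-type replicate 1 (edgeR adjusted p 0.0658) or 3 (0.0848) or knockout replicate 1 (0.202). The adjusted p of EPCAM ran from 0.00775 to 0.202 over all settings, DESeq2 and voom included. CDH1, the gene of E-cadherin, did not pass, at 27.7 ± 2.39 against 31.2 ± 1.48 CPM (0.17, edgeR adjusted p 0.0715). The summed level of the list was 1320 to 1356 CPM in the wild-type and 1115 to 1173 CPM in the knockout libraries. KRT8 was again the largest part of the sum and made up most of its difference, so this is largely the same change as in the trophoblast sum. The part of this list in the changes of TFAP2C and GATA3 was not tested. The exons of KRT8 and KRT18 overlap each other in the annotation. Those of TNC, ENPEP, ITGA6, ARID3A, CDH1 and PITX1 overlap other genes. Without strand information the values of all these genes are uncertain.

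**Figure D4:**
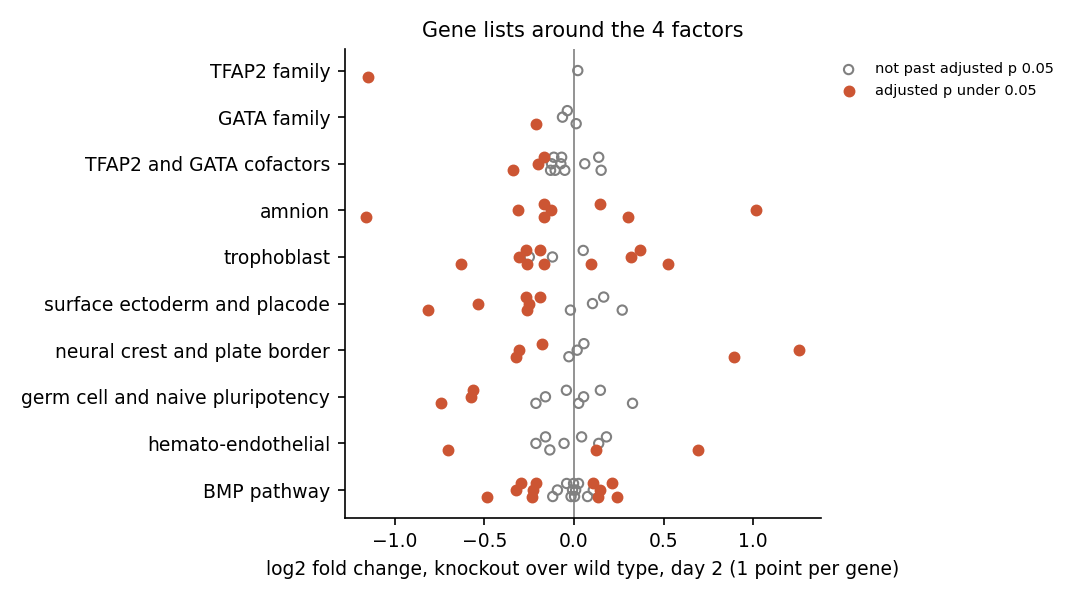
Log2 fold change, knockout over wild type, at day 2 (horizontal axis) for each tested gene of 10 lists, filled where the edgeR adjusted p was under 0.05. All 8 tested amnion genes are filled and lie on both sides of 0, while the 6 filled surface ectoderm genes lie below 0. Of all tested genes, 23.3% had an edgeR adjusted p under 0.05.

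TFAP2C also belongs to the human germ cell programme, and GATA2 to that of blood. Of 18 germ cell and naive pluripotency genes 10 were tested, of which 3 fell and none rose (30% called, near the 23.3% of all tested genes, median −0.10). These were the partners of TFAP2C in germ cell specification, SOX17 (150.8 ± 3.30 to 102 ± 3.30 CPM, −0.56) and PRDM1 (18.9 ± 2.38 to 11.4 ± 2.01 CPM, −0.74), and NANOG (−0.57). SOX17 is also an endoderm gene. KIT did not pass (−0.21, edgeR adjusted p 0.133), and the germ cell gene NANOS3 was not analysed here at day 2. The summed level was 251 to 261 CPM in wild type and 193 to 199.9 CPM in the knockout, and SOX17 made up most of it and most of its difference. Of 22 hemato-endothelial genes 10 were tested: TEK (0.69) and KDR (0.12) rose, and ETV2 (1.85 ± 0.125 to 1.13 ± 0.215 CPM, −0.70, edgeR adjusted p 0.0399) fell, 30% in all, again near the 23.3% of all tested genes. ETV2 lost its call without any single wild-type library and without knockout replicates 2 and 3 in turn (edgeR adjusted p 0.0637 to 0.164) and in DESeq2 (0.0649). GATA2's usual partners TAL1 and LMO2 were not analysed here at day 2. The summed level rested mostly on KDR and ran from 892 to 918 CPM in wild type and from 957 to 995 CPM in the knockout libraries.

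Of 17 neural crest and plate border genes, a further site of TFAP2A activity, 8 were tested (median −0.0051). The nerve growth factor receptor gene NGFR (3.05 to 7.31 CPM, 1.26) and TWIST1 (5.26 to 9.80 CPM, 0.89) rose from low means. SNAI2 (−0.32), MSX2 (−0.30) and MSX1 (−0.18) fell. The share called was 62.5%, beside 23.3% of all tested genes. FOXD3, SOX10 and PAX3 were not analysed here at day 2. The summed level was 595 to 605 CPM in wild type and 569.9 to 596 CPM in the knockout, so these ranges overlapped. The exons of NGFR and TWIST1 overlap other genes.

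BMP signalling lies upstream of GATA3 and TFAP2C in amnion and trophoblast induction. Of 27 listed genes of the pathway 22 were tested, of which 5 rose and 6 fell (median −0.0051). The share called was 50%, beside 23.3% of all tested genes. The ligand gene BMP2 rose from 924 ± 19.3 to 1093 ± 11.9 CPM (SD, n = 3; 0.24, edgeR adjusted p 1.01e-07). The receptor gene ACVR2B (0.13), the pseudoreceptor BAMBI, SMAD6 (0.11) and SMAD9 (0.21) rose. The receptor gene ACVR1 (−0.23), the antagonists NOG (42.1 ± 3.23 to 30.01 ± 2.76 CPM, −0.48) and FST (−0.23), the inhibitory SMAD7 (−0.21) and the direct targets ID1 (−0.32) and ID2 (−0.30) fell. The ligand gene BMP4 (367 ± 10.9 against 366 ± 0.664 CPM, edgeR adjusted p 0.969) and the target ID4 (0.11, edgeR adjusted p 0.27) did not pass. SMAD6 lost its call without wild-type replicate 2 (edgeR adjusted p 0.0959) or knockout replicate 1 (0.052). SMAD9 lost its call when wild-type library 2, wild-type library 3, knockout library 1 and knockout library 3 were left out in turn (0.0531 to 0.108) and in DESeq2 (0.0537).

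At day 0, genes of the same lists lay on both sides. Of the amnion genes with at least 1 FPKM, 4 were higher and 3 lower by 1.5-fold out of 10, of the trophoblast genes 2 and 2 out of 12, of the surface ectoderm genes none and 2 out of 13, and of the BMP pathway genes 4 and 3 out of 22. Over all genes of that level, 13.6% passed 1.5-fold in either direction and 8.77% were lower. KRT7, a keratin of trophoblast and amnion, was at 19.6 FPKM in wild type and 7.42 FPKM in the knockout (log2 ratio −1.29). GABRP, also of the amnion list, was at 7.40 and 3.002 FPKM (−1.07). The amnion gene ANXA1 was higher in the knockout library, at 0.306 and 3.30 FPKM (1.72). BAMBI (7.37 and 14.1 FPKM, 0.85) and TNC (3.48 and 7.06 FPKM, 0.85) of the same list were higher as well. The forkhead gene FOXI3 was lower, at 7.81 and 2.39 FPKM (−1.38). CDH1, the gene of E-cadherin, which did not pass at day 2, was at 126 and 83.8 FPKM (−0.58). KRT19 (64.4 and 44.0 FPKM), ITGA6 (34.8 and 26.9 FPKM) and ESRP1 (44.8 and 42.6 FPKM), which fell at day 2, were also lower. Higher in the knockout library were KRT8 (135 and 158 FPKM), KRT18 (68.0 and 90.9 FPKM) and EPCAM (77.9 and 103 FPKM), which fell at day 2. The trophoblast factor TEAD4 (26.0 and 45.3 FPKM, 0.78) and NANOG (13.7 and 22.3 FPKM, 0.67) were higher too. So were the BMP targets SMAD7 (2.28 and 7.83 FPKM, 1.43), ID3 (11.9 and 25.2 FPKM, 1.02) and ID2 (6.23 and 9.99 FPKM, 0.60). BAMBI, given above, belongs to the BMP list as well. Lower were the target ID4 (4.47 and 2.14 FPKM, −0.80) and the antagonist FST (7.03 and 3.41 FPKM, −0.86). The target ID1 was also lower (47.3 and 41.2 FPKM, −0.19) but did not reach 1.5-fold. These are single libraries, with no replicate check.

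The neighbouring antisense RNAs were low. GATA3-AS1, which shares no exon with GATA3, was 2.52 ± 0.224 CPM in wild type and 2.21 ± 0.0611 CPM in the knockout at day 2 (−0.19, edgeR adjusted p 0.556). GATA2-AS1 was 3.65 ± 0.407 against 4.02 ± 0.440 CPM (0.14, edgeR adjusted p 0.595). Neither passed, and both were listed at 0 in the wild-type library at day 0.

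GATA3 was called and GATA2 was not, and the sequences before their starts were set side by side (RefSeq, GRCh38.p14), a search added after the values were seen. The TFAP2 motif searched was GCCNNNGGC, which reads the same on both strands. For each gene the stretch shown was picked from those that hold the motif (in capitals), so its presence in both was fixed by that choice. Over the 250 bases before the start, 19.8% of all 35116 listed promoters held it. GATA2 is shown for chr3:128493202-128493451 on the minus strand, and GATA3 for chr10:8054438-8054652 on the plus strand, where an annotated exon ends the stretch shown:
GATA2: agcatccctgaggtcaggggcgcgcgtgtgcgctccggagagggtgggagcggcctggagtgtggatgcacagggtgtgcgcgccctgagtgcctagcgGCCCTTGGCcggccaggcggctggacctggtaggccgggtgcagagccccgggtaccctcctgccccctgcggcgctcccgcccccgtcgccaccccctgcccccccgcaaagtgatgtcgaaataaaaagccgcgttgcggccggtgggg
GATA3: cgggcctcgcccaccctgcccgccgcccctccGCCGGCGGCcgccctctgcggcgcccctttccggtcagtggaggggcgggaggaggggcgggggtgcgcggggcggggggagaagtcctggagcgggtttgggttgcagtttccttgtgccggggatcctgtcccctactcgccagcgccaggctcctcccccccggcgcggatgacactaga
The match begins at position −151 from the GATA2 start and −218 from the GATA3 start. Over all listed starts, the motif lay before both of 2 for GATA2, 3 of 6 for GATA3 and none of 2 for TFAP2A. GATA motifs (AGATAA on either strand, also with T as its first or G as its last base, in 22.3% of promoters) were found before none of these 10 starts. Such matches describe letters only.

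The genes whose day 2 pattern was nearest to that of the called members were found by the root-mean-square difference of log2 CPM, centred on the wild-type mean, over the 6 libraries and 10277 genes. Nearest to TFAP2C were the sterol reductase gene TM7SF2 (difference 0.202), the scramblase gene PLSCR1 (0.203), the recombination gene RAD51C (0.239) and the homeobox genes HOXB6 (0.26) and HOXB9 (0.283). Their log2 fold changes ran from −1.13 for RAD51C to −0.86 for HOXB9. All 5 were lower in every knockout library than in any wild-type library, which follows from choosing them by likeness to TFAP2C. Of all tested genes, 37.7% showed no overlap between genotypes, in either direction. Their day 0 values lay on both sides: TM7SF2 was at 19.3 FPKM in wild type and 10.97 FPKM in the knockout, but PLSCR1 was at 12.9 and 15.3 FPKM and RAD51C at 6.27 and 8.51 FPKM. Nearest to GATA3 were ALDOA (0.010), TSFM (0.0213), COMMD9 (0.0228), KRT19 (0.0229) and PQBP1 (0.0231). KRT19, a keratin of the trophoblast and surface ectoderm lists, fell from 121.5 ± 1.62 to 106.7 ± 2.35 CPM (−0.19, edgeR adjusted p 0.000373). Likeness over 6 libraries in 2 groups is a description. Exons of TM7SF2, HOXB6, ALDOA, TSFM and PQBP1 overlap other genes.

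**Figure D5:**
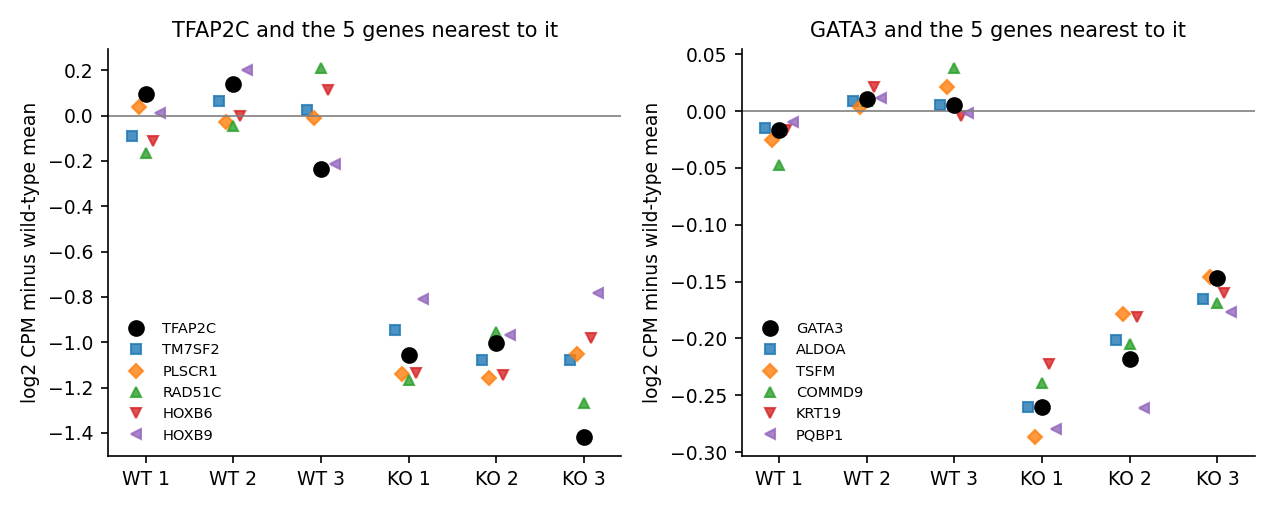
Log2 CPM minus the wild-type mean (vertical axes, different scales) in the 6 day 2 libraries for TFAP2C (left) and GATA3 (right), black, each with its 5 nearest genes. For TFAP2C and its 5 nearest genes every knockout library lies below every wild-type library, which for the 5 follows from how they were chosen.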

How the data were processed

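RNA-seq libraries of H1 cells were prepared from TRIzol-extracted RNA with a SMARTER mRNA-Seq kit, per the labels' protocols. Per the submitters' processing notes, HISAT2 and StringTie were used, with the GRCh38 (hg38) genome. The counting tool, its strand setting and any gene filter are not stated there. The day 2 values are whole counts per gene as deposited, and the day 0 values are FPKM as deposited, per the file headers. No value was compared across the days' tables.

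Day 2 counts were filtered (filterByExpr), scaled by TMM and fitted in edgeR 4.0.16 (R 4.3.3; robust quasi-likelihood F test, 2-sided, genotype only, adjusted p under 0.05). The SE is the log2 fold change divided by the square root of F. The fit was tested on simulated data. Day 0 ratios use FPKM + 1. Whole-read steps could not be recovered from the low FPKM values. Positions, exon lengths (the union of annotated exons) and overlaps come from GENCODE 29. Of 11644 symbols, 11511 matched it. Promoters come from RefSeq (GRCh38.p14), in which 3 of the 4 members were matched. Python 3.11.15, pandas 2.3.3, scipy 1.17.1 and biopython 1.88 were used. Alternatives were other scalings and filters, DESeq2 1.42.0, voom in limma 3.58.1, a replicate block and leaving out each library. Named were the members, up to 4 genes per list by smallest p with any other called list gene, the 5 genes nearest to each called member (at least 5 CPM), and up to 2 genes per list at day 0 (at least 5 FPKM). At day 0 not every gene of that rule is described. ANXA1, BAMBI, TNC, KRT8, KRT18, KRT19, EPCAM, ITGA6, ESRP1, ID1, ID2, ID4 and FST are given outside it there. CDH1, BMP4 and ID4 are given outside it at day 2. The members and lists were chosen with earlier results of these data known.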

Additional observations from a re-analysis of the deposited data

Results flagged for a closer look

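GATA3 had values of opposite sign on the 2 days, which does not establish opposite directions. At day 2 each knockout library lay below each wild-type library (log2 fold change −0.21). At day 0 the log2 ratio on the FPKM + 1 scale was 0.092, with 0.287 FPKM (wild type) and 0.372 FPKM (knockout). These day 0 levels are among the lowest listed and come from 1 library per genotype, so no direction is read from them, and the difference between the days was not tested.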

How the results depend on the processing

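TFAP2C and GATA3 were called lower under each of the 13 alternatives. With 1 library left out, the log2 fold change of TFAP2C ran from −1.26 to −1.04 and that of GATA3 from −0.24 to −0.18. That of TFAP2A ran from −0.026 to 0.051 and that of GATA2 from −0.010 to 0.034, neither called under any alternative. Their sign changed without wild-type replicate 1 (TFAP2A −0.0054) and without knockout replicate 1 (TFAP2A −0.026, GATA2 −0.010). The number of genes called was 2005 to 2669, against 2668. Replicate numbers did not pair the libraries (correlations of same-numbered deviations −0.0728 to −0.0373, and no library was nearest to its own number). With the replicate block 2210 genes were called, TFAP2C (−1.16) and GATA3 (−0.21) among them, TFAP2A (0.02) and GATA2 (0.01) not. List counts stayed within 1.5 times the reported ones, apart from the cofactors, 3 to 5 called. The replicate block also ended the calls of ARID3A (edgeR adjusted p 0.0772), ETV2 (0.0606) and SMAD9 (0.0557).

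The day 0 log2 ratios depend on the pseudocount. With 0.1 FPKM they were 0.31 for TFAP2A, −0.55 for TFAP2C, 1.15 for GATA2 and 0.29 for GATA3. With 5 FPKM they were 0.0080, −0.26, 0.060 and 0.023 in the same order. Centred on the median of genes of at least 1 FPKM they were 0.071, −0.42, 0.30 and 0.12, and centred on that of all genes 0.069, −0.42, 0.29 and 0.12. Day 2 counts of 67 to 213 limit the precision for TFAP2C, and day 0 allows no error estimate.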

Other observations

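GATA6-AS1, an antisense RNA whose exons overlap GATA6, was chosen after its values were seen. It rose at day 2 from 89.3 ± 0.382 to 115 ± 0.977 CPM (SD, n = 3; log2 fold change 0.37, edgeR adjusted p 8.26e-09), while GATA6 was 760.1 ± 8.35 against 741 ± 10.7 CPM and did not pass (−0.04, edgeR adjusted p 0.395). The counts of the overlapping exons cannot be assigned to a strand here. At day 0 both were listed under 0.2 FPKM in both libraries.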
